A study of Mus musculus with 4 samples.

Results

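The genes described here encode the machinery that degrades messenger RNA: the RNA exosome, the decapping and 5′-to-3′ decay enzymes, the deadenylases and the core factors of nonsense-mediated decay. They were 38 protein-coding genes taken by symbol from a set list, among 55487 gene IDs in the deposited table, and all 38 were found. By role, 15 belong to the exosome and its cofactors, 7 to decapping and 5′ decay, 9 to deadenylation and 7 to nonsense-mediated decay (NMD). The rule itself uses no measured value, although the list was drawn up with earlier results of these data known.

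Levels were measured in primary neural stem cells grown in culture from embryonic neocortices of floxed mice, with 1 library for each of 4 groups. The control (titled wild type) carried Tut1f/f and received empty lipid nanoparticles (LNP), so it also holds floxed Tut1 alleles and an LNP treatment. The other groups received LNP with mRNA for Cre recombinase, which deletes DNA between loxP sites, for 3 days: Tut1f/f cells gave the Tut1 KO library, p53f/f cells the Trp53 KO library and Tut1f/f;p53f/f cells the double KO library. Tut1 codes for an enzyme that puts uridines on the end of U6 snRNA, Trp53 for the transcription factor p53, and the study asked what Tut1 loss does to these cells. There was no group with Cre and no floxed allele, and an effect of Cre itself cannot be told apart from that of the deletions. How many cultures or embryos stood behind a library was not stated.

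Decay of most mRNAs starts with removal of the poly(A) tail by the CCR4-NOT and PAN2-PAN3 complexes. The body is then degraded from the 3′ end by the exosome, a barrel of catalytically inactive subunits that feeds RNA to DIS3 or EXOSC10, or, after DCP2 removes the cap, from the 5′ end by XRN1. NMD is a surveillance branch in which UPF1 recognises transcripts with early stop codons and hands them to the same enzymes, and it is known to restrain neural differentiation programmes and to be linked to intellectual disability through UPF3B.

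Values were TPM, transcript abundances scaled by transcript length and by the library total, so levels can be set beside each other between genes. Lists of 4 values follow 1 order throughout: control, then Tut1 KO, then Trp53 KO, then double KO. Since each group was a single library, no difference between 2 groups could be tested or given an error, and it compares 2 libraries, not 2 conditions. No test of a label over all 4 libraries was run. The depth behind the values is unknown. Differences are in log2(TPM + 1), where the added 1 makes the change of low genes look smaller, and a gene is called higher or lower where this scale differs by at least 1.5-fold (0.58) and TPM reached 10 in at least 1 library compared. Comparisons that share a library share its error.

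The targeted genes and the cells were checked first. Tut1 was listed at 12.2, 29.8, 12.5 and 13.7 TPM, the second value being that of the library labelled Tut1 KO, so it was not lower in either library labelled for its loss. The floxed allele loses exon 2 alone, so a level taken over the whole gene need not be lower after the deletion and does not check the label. No exon-level value was analysed here, and the direction of every Tut1 comparison below rests on the label. Trp53 had 119.9 and 100.4 TPM in the libraries with intact Trp53 and 39.7 and 41.9 TPM in those labelled for its loss. All 10 neural stem cell markers were at 1 TPM or more in every library (summed 10814 to 12729 TPM), while the microglial, endothelial and fibroblast lists summed to under 1 TPM in each, with Aif1, Cx3cr1, Cdh5, Dcn and Lum listed at 0 in all 4. Neuronal markers summed to between 160.5 and 229 TPM (4 of 7 at 1 TPM or more in all), oligodendrocyte markers to between 562 and 663 TPM (3 of 5) and astrocyte markers to between 82.2 and 93.5 TPM (2 of 4). Xist was at 188 TPM (Tut1 KO) and 204 TPM (Trp53 KO) and at about 0.01 TPM in the control and double KO, and the Y-linked Ddx3y was listed at 0 in the former pair against 24.4 and 25.7 TPM in the latter. The libraries thus fall into pairs by sex-linked genes that cross the Tut1 and the Trp53 labels, and the part of this split in any result was not tested.

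The decay machinery was expressed at ordinary mRNA levels and varied little among the libraries. The members' median was 34.8, 32.7, 34.2 and 36.6 TPM, beside 30.2, 28.0, 29.5 and 29.9 TPM over the 9314 genes that reached 10 TPM in some library. Summed over the 38 genes, TPM came to 1534, 1382, 1473 and 1530 in the same order. Of the 38, 35 reached 10 TPM in at least 1 library and 31 in all 4, while Xrn1, Dcp1a and Dcp1b stayed under 10 TPM throughout. For 34 members (89.5%) the highest library was less than 1.5 times the lowest, beside 73.1% of the 9314 genes. The exceptions were Exosc6 (7.82 times), Xrn1 (1.61 times), Cnot7 (1.59 times) and Cnot2 (1.58 times). The steadiest was Parn, a poly(A)-specific ribonuclease, at 22.2, 21.6, 21.7 and 21.6 TPM.

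**Figure D1:**
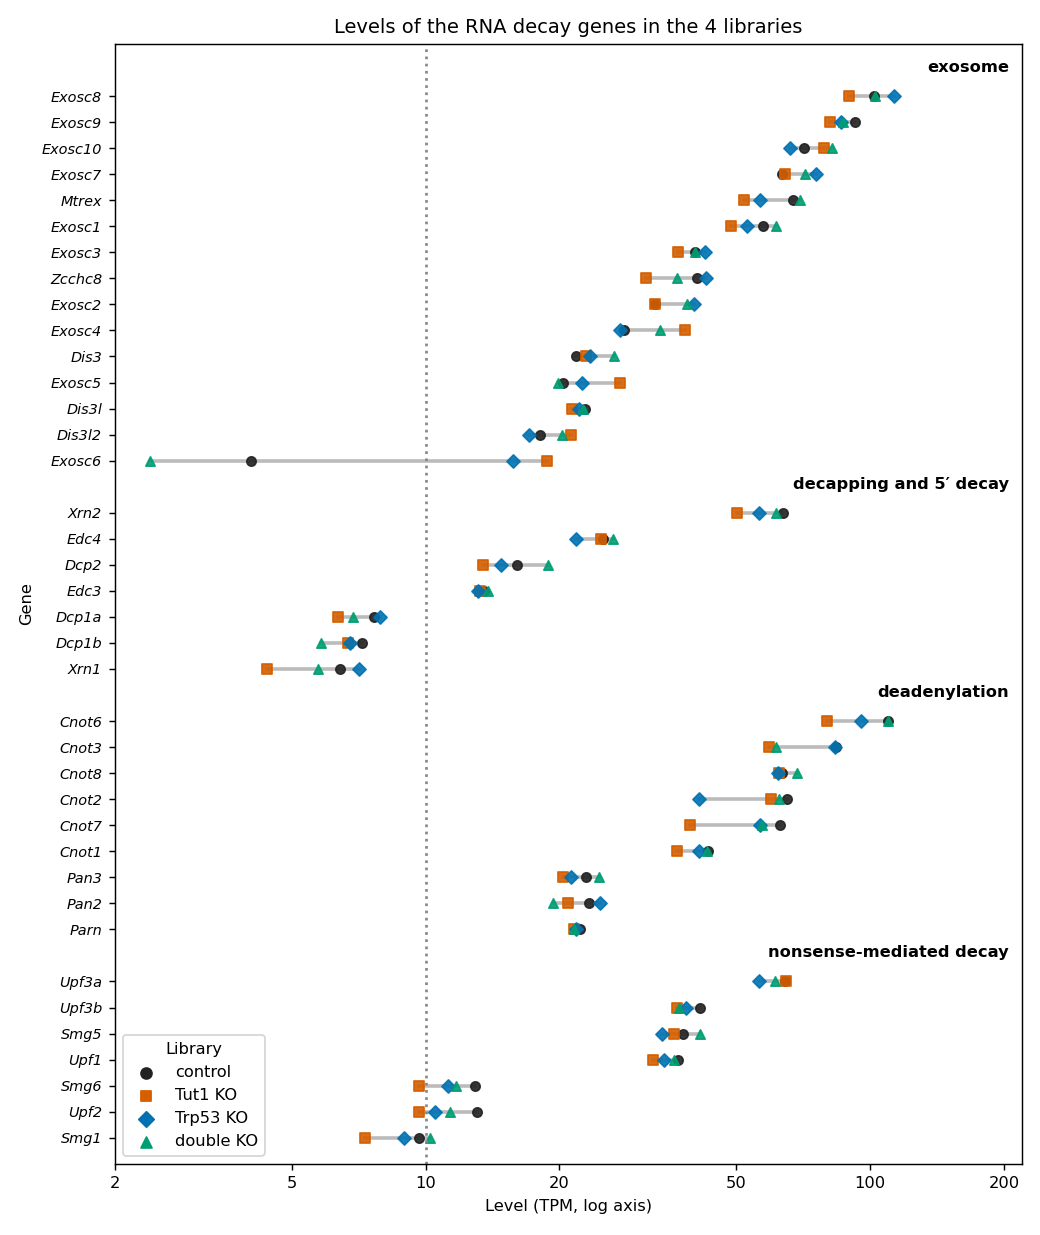
TPM of each of the 38 genes (log axis) in the 4 libraries, 1 symbol a library, sorted by mean level within each group; the grey bar spans lowest to highest and the dotted line marks 10 TPM. Most bars are short, Exosc6 spans from 2.40 to 18.8 TPM, and Xrn1, Dcp1a and Dcp1b lie left of the line.

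At 1.5-fold, 2 of the 34 members tested were called between the Tut1 KO and the control, beside 12.1% of all 9032 genes tested: Exosc6 was higher and Cnot7 lower. Between the double KO and the Trp53 KO, the Tut1 comparison without Trp53, 2 of 35 were called (7.89% of all genes), with Cnot2 higher and Exosc6 lower. No member was called in the same direction in both, beside 1.71% of the 9314 genes. For the Trp53 label, 2 of 34 were called between the Trp53 KO and the control (8.42% of all genes), Exosc6 higher and Cnot2 lower, and 1 of 35, Exosc6, was lower in the double KO than with Trp53 intact (10.7%). Between the double KO and the control 0 of 34 were called (7.76%). At 2-fold Exosc6 alone was called in each of the first 4 comparisons, beside 4.1%, 3.21%, 3.83% and 3.9% of all genes, and no member between the double KO and control (3.31%).

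**Figure D2:**
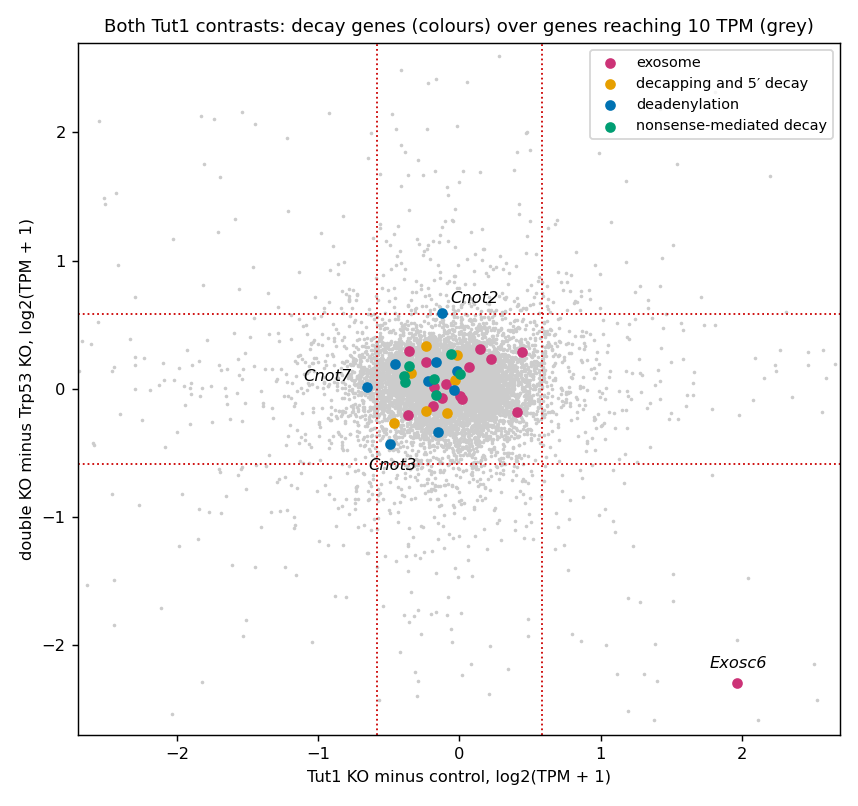
Difference in log2(TPM + 1) between the Tut1 KO and the control (x axis) and between the double KO and the Trp53 KO (y axis); coloured points are the 38 members, grey points the 9314 genes that reached 10 TPM (101 lie beyond the axes), and dotted lines mark 1.5-fold. Exosc6 sits alone at 1.97 and -2.30. Cnot3, at -0.49 and -0.43, is the one member at least 1.25-fold lower on both axes, as were 3.17% of the 9314 genes.

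The exosome barrel carries a cap of 3 RNA-binding subunits. Exosc1 had 57.5, 48.7, 52.8 and 61.3 TPM. Exosc2 had 32.8, 32.8, 40.2 and 38.7 TPM. Exosc3, the cap gene mutated in a human pontocerebellar hypoplasia, had 40.3, 36.9, 42.5 and 40.4 TPM. Both libraries labelled for Trp53 loss were above both others for Exosc2 and Exosc3 (14.2% of all genes had that order). For Exosc3 the double KO was above the control by only 0.001. Exosc1 was lowest in the Tut1 KO and highest in the double KO. The cap differences between the Tut1 KO and control were -0.24, 0.00 and -0.13.

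Below the cap lies the ring of 6 RNase PH-like subunits, which have lost catalytic activity and hold the RNA channel together. The ring genes other than Exosc6 were unequal in mRNA level. In the control Exosc8 had 102 TPM, Exosc9 92.5 TPM, Exosc7 63.4 TPM, Exosc4 27.9 TPM and Exosc5 20.4 TPM. That order, Exosc8 above Exosc9 above Exosc7 above Exosc4 above Exosc5, was the same in all 4 libraries, although these proteins are assembled in equal numbers. Exosc4 had 27.9, 38.3, 27.4 and 33.6 TPM, with both libraries labelled for Tut1 loss above both others (differences of 0.44 with Trp53 and 0.29 without it). Exosc5 had 20.4, 27.3, 22.5 and 19.8 TPM, highest in the Tut1 KO (0.41 over the control) and lowest in the double KO. Exosc7 had 63.4, 64.2, 75.7 and 71.4 TPM and Exosc8 102, 89.7, 113 and 103 TPM. Each was higher in both libraries labelled for Trp53 loss than in the others, an order of 5 members (13.2%) beside 14.2% of all genes. The Trp53 KO was above the control by 0.25 and 0.14, and the double KO by 0.17 and 0.008. Exosc9 ranged from 81.4 to 92.5 TPM.

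Exosc6, the ring subunit known as MTR3, stood apart from every other member. It was at 4.05, 18.8, 15.7 and 2.40 TPM, and the 2 high libraries did not overlap the 2 low ones. The same order of pairs was seen in 11.5% of all 9314 genes and, among the members, in Exosc5 as well. The difference was 1.97 between the Tut1 KO and control and -2.30 between the double KO and Trp53 KO, and 1.73 and -2.54 for the Trp53 label with Tut1 intact and without it. The high pair was the pair with Xist, so neither the Tut1 nor the Trp53 label alone orders the values. Of all 9314 genes, 27 (0.29%) were at least 2-fold higher in both of these libraries than in both others, and Exosc6 was the only member among them. This cut was applied only to the order that Exosc6 shows, so the share is no measure of how rare its spread is.

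The annotation bears on this value. Exosc6 is a single-exon gene of 1326 bases on chromosome 8, from 111056339 to 111057664 on the plus strand of GRCm38, with its coding sequence from 111056371 to 111057189. In the GENCODE annotation it lies wholly (100%) inside the last exon of Aars, the cytosolic alanyl-tRNA synthetase gene, which runs from 111055019 to 111057664 on the same strand and has its stop codon at 111055202 to 111055204. In RefSeq, Aars ends at 111055569, before Exosc6 begins. A read from the shared stretch can be given to either gene, and how such reads were divided is not given in the sources used here.

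Aars was at 87.4, 75.8, 88.7 and 103.2 TPM. Summed over both genes the values were 91.5, 94.5, 104.4 and 105.6 TPM. Aars made up 95.6%, 80.1%, 85.0% and 97.7% of these sums. Aars alone ran from 75.8 to 103.2 TPM and the sum from 91.5 to 105.6 TPM. The sum does not show how reads were divided, which was not tested. The level of Exosc6 on its own is uncertain because its exon is shared, and whether that accounts for its spread was not tested.

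**Figure D3:**
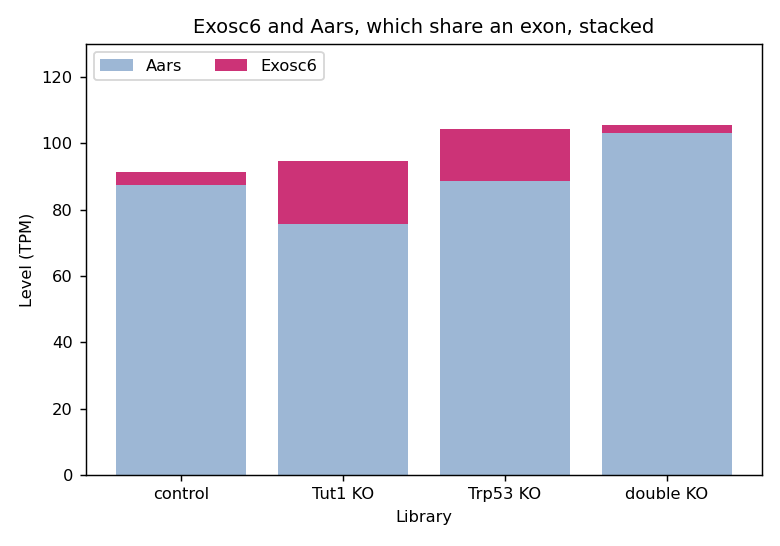
TPM of Aars (blue) and Exosc6 (magenta) stacked for each library, on an axis from 0. The Exosc6 segment is wide in the Tut1 KO and Trp53 KO and narrow in the control and double KO, while the whole bars run from 91.5 to 105.6 TPM.

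Among the nucleases, EXOSC10 is the nuclear 3′-to-5′ enzyme of the exosome, DIS3 the processive one and DIS3L its cytoplasmic counterpart. Exosc10 had 70.8, 78.5, 66.1 and 82.2 TPM and was higher in both libraries labelled for Tut1 loss (0.15 with Trp53 and 0.31 without it). Dis3 had 21.8, 22.9, 23.4 and 26.5 TPM and Dis3l 22.9, 21.4, 22.1 and 22.6 TPM. These paralogs were thus nearly level, Dis3 making up between 48.8% and 53.9% of their sum. Dis3l2 encodes a nuclease that works without the exosome and prefers RNAs with a uridine tail, the product of terminal uridylyltransferases. It had 18.1, 21.3, 17.1 and 20.3 TPM, with both libraries labelled for Tut1 loss on top. That order was seen in 3 members (7.89%), Exosc4, Exosc10 and Dis3l2, beside 15.3% of all 9314 genes. The differences of Dis3l2 were 0.23 and 0.24, equivalent to under 1.5-fold in each. With a fit on transcript GC content and length removed from each library, they were 0.63, past 1.5-fold, and 0.10.

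The nuclear cofactors followed different orders. Mtrex, the helicase that threads RNA into the nuclear exosome, had 66.9, 52.1, 56.6 and 69.5 TPM, a difference of -0.35 between the Tut1 KO and control and 0.29 between the double KO and Trp53 KO. Zcchc8, the scaffold of the nuclear exosome targeting complex, had 40.7, 31.3, 42.7 and 36.9 TPM and was lower in both libraries labelled for Tut1 loss, with differences of -0.37 and -0.21. Neither passed 1.5-fold. Over all 15 exosome genes the median difference between the Tut1 KO and control was 0.00, with 8 above 0 and 7 below, beside a median of -0.09 over all genes tested, of which 60.7% were below 0. With a fit on transcript GC content and length removed from each library, the exosome median was 0.06, with 10 above 0 and 5 below.

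Of the 5′-to-3′ exonucleases, nuclear Xrn2 was far more abundant than cytoplasmic Xrn1. Xrn2 had 63.8, 50.1, 56.2 and 61.4 TPM. Xrn1 had 6.43, 4.39, 7.09 and 5.72 TPM, and its share of the sum of both genes was 9.15%, 8.05%, 11.2% and 8.53%. The decapping enzyme Dcp2 had 16.1, 13.5, 14.7 and 18.9 TPM. It exceeded each of the genes of its activators Dcp1a (6.36 to 7.89 TPM) and Dcp1b (5.83 to 7.19 TPM) in every library. Edc3, an enhancer of decapping, ranged only from 13.1 to 13.8 TPM, and Edc4, the scaffold of the decapping complex, from 21.8 to 26.4 TPM. All 7 genes of the group were lower in the Tut1 KO than in the control, with a median of -0.24, as were 60.7% of all genes. After the correction for GC content and length the median was 0.01 and 4 of the 7 were above 0. Between the double KO and Trp53 KO, 4 were higher and 3 lower, with a median of 0.07 that came to 0.03 after the correction.

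Among members that reached 10 TPM, the widest ranges after that of Exosc6 were those of the deadenylation genes Cnot7, Cnot2 and Cnot3. CCR4-NOT is built on the scaffold CNOT1 and carries a pair of catalytic subunits, one of CNOT6 or CNOT6L and one of CNOT7 or CNOT8. Cnot7 had 62.6, 39.3, 56.6 and 57.1 TPM, so that the Tut1 KO alone was low. The difference was -0.66 with Trp53 and 0.01 without it. The first was no longer past 1.5-fold with the median of all genes set to 0 (-0.56), after quantile normalization (-0.57) or after the correction for GC content and length (-0.23). Its paralog Cnot8 had 63.4, 62.5, 61.9 and 68.4 TPM. Cnot7 made up 49.7%, 38.6%, 47.8% and 45.5% of the sum of the pair.

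Cnot6 was the most abundant of the deadenylation genes, at 109.9, 79.8, 95.5 and 109.5 TPM, with a difference of -0.46 between the Tut1 KO and control and 0.20 between the double KO and Trp53 KO. Cnot6l, its paralog outside the list, was at 15.9, 11.8, 16.5 and 17.1 TPM, and Cnot6 made up between 85.3% and 87.3% of the pair in every library. The scaffold Cnot1 had 43.2, 36.8, 41.2 and 42.9 TPM. The Tut1 KO was the lowest library for both Cnot6 and Cnot1, and after the correction it was the lowest for neither.

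Cnot2 and Cnot3 form the NOT module, which docks repressors such as Nanos onto the complex. Cnot3 lies on the plus strand of chromosome 7 (3645268 to 3661109 in GRCm38). Its level was 83.7 TPM (control), 59.2 TPM (Tut1 KO), 83.4 TPM (Trp53 KO) and 61.5 TPM (double KO). Both libraries labelled for Tut1 loss were low, and each pair of libraries with the same Tut1 label had close values whichever Trp53 label they carried. The differences were -0.49 with Trp53 and -0.43 without it, from libraries that are not shared, and -0.01 and 0.05 for the Trp53 label. Cnot3 was the only member at least 1.25-fold lower in both Tut1 comparisons. It was 1 of the 35 members that reached 10 TPM (2.86%), close to the 3.17% of all 9314 genes. No member was 1.25-fold higher in both (2.38% of all genes). Cnot3 did not pass 1.5-fold in either. This threshold of 1.25-fold was chosen after the data were seen.

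Cnot2 had 65.1, 59.7, 41.3 and 62.5 TPM, and the Trp53 KO alone was low. The difference was -0.65 between the Trp53 KO and control and 0.59 between the double KO and Trp53 KO, and since both use the Trp53 KO library they are not separate evidence. The second lay just past the threshold and came to 0.54 with a pseudocount of 5 and 0.50 after the correction, which brought the first to -0.57. Of the other tail-removing enzymes, Pan2 had 23.3, 20.9, 24.7 and 19.3 TPM and Pan3, its adaptor, 22.9, 20.4, 21.2 and 24.6 TPM. Pan2 differed by -0.34 between the double KO and Trp53 KO. All 9 deadenylation genes were lower in the Tut1 KO than in the control (median -0.16), beside 60.7% of all genes, while between the double KO and Trp53 KO 6 were higher and 3 lower (median 0.06). Both medians turned after the correction for GC content and length, to 0.03 with 5 of 9 above 0 and to -0.03 with 4 of 9 above 0.

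The NMD factors differed little. Upf1, the helicase at the core of the pathway, had 36.9, 32.5, 34.4 and 36.3 TPM. Its partner Upf2 was lower in level, at 13.0, 9.69, 10.5 and 11.4 TPM, highest in the control. Upf3a had 64.3, 64.7, 56.2 and 60.9 TPM and Upf3b 41.3, 36.7, 38.5 and 37.2 TPM. Upf3a, the weaker NMD activator of the pair, exceeded the X-linked Upf3b by between 1.46 and 1.76 times in every library. Upf3a was the member lower in both libraries labelled for Trp53 loss than in both others, a pattern of 13.4% of all genes. The kinase gene Smg1 had 9.67, 7.31, 8.95 and 10.2 TPM. Smg5, an adaptor that recruits decay enzymes to phosphorylated UPF1, had 37.9, 36.3, 34.0 and 41.4 TPM, and the endonuclease Smg6 had 12.9, 9.66, 11.2 and 11.7 TPM. No NMD member passed 1.5-fold in any of the 5 comparisons. Between the Tut1 KO and control 6 of 7 were below 0 (60.7% of all genes) with a median of -0.18, which came to -0.03 with 4 of 7 below 0 after the correction, and between the double KO and Trp53 KO 6 of 7 were above 0 (58.7% of all genes) with a median of 0.10, which came to 0.06 with 5 of 7 above 0.

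**Figure D4:**
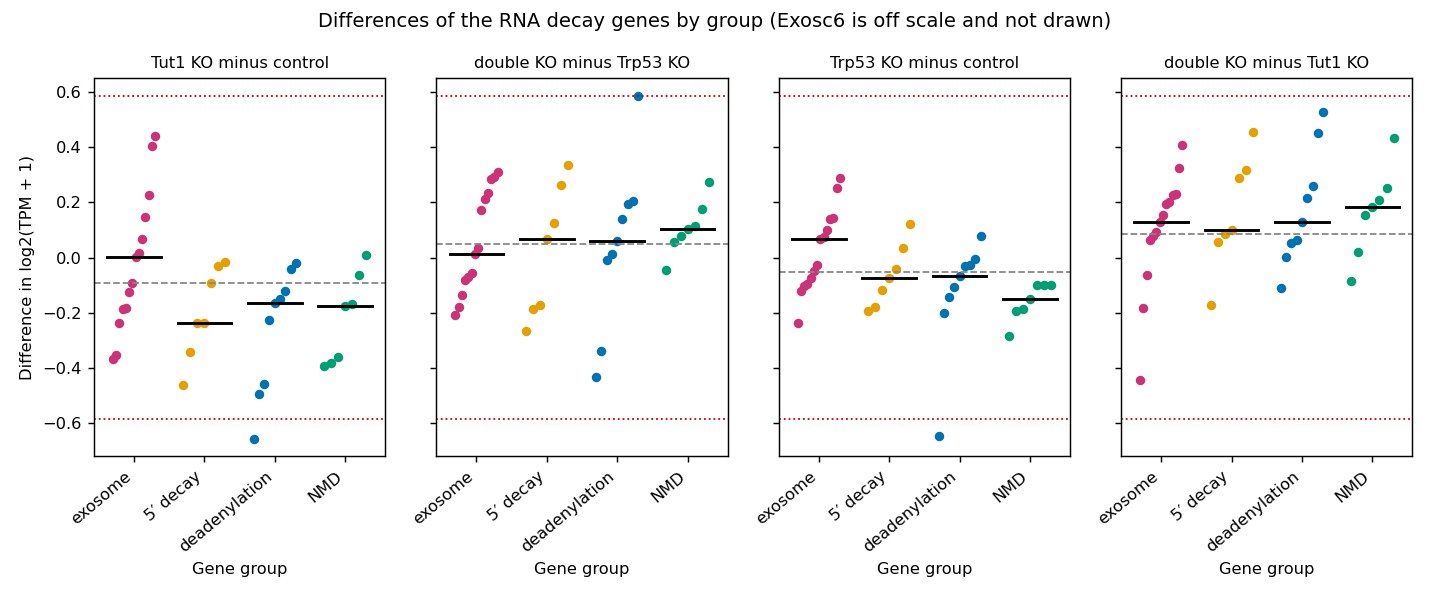
Difference in log2(TPM + 1) of each member by group (5′ decay includes decapping) in 4 comparisons; black bars are group medians with Exosc6 included, the dashed line is the median of all genes tested and dotted lines mark 1.5-fold. The values are uncorrected for GC content, and in the first panel the deadenylation and 5′ decay genes all lie below 0, which they do not in the second.

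Across the 38 members the Tut1 KO library stood lowest most often. It was the lowest of the 4 for 22 members (57.9%), or for 20 of the 35 that reached 10 TPM (57.1%), beside 41.1% of the 9314 genes. The Trp53 KO was lowest for 9 (24.3% of all genes), the double KO for 4 (17.1%) and the control for 3 (17.5%). The median difference between the Tut1 KO and control was -0.16 over the members and -0.09 over all genes tested, with 29 of 38 members below 0. Between the double KO and the Trp53 KO it was 0.06 over the members and 0.05 over all genes, with 24 of 38 above 0, beside 58.7% of all genes. For 19 members (50%) both the Tut1 KO and the Trp53 KO were below both the control and the double KO, beside 28.5% of the 9314 genes. All 19 reached 10 TPM. The low pair was the pair with Xist, and the part of that split was not tested. Both libraries labelled for Tut1 loss were below both others for 8 members, namely Cnot3, Dcp1a, Dcp1b, Pan2, Parn, Upf3b, Xrn1 and Zcchc8. Without the 3 of these that stayed under 10 TPM it was 5 of 35 (14.3%), beside 17.1% of the 9314 genes. Those libraries were above both others for 3 (7.89%, beside 15.3%), namely Dis3l2, Exosc10 and Exosc4. For the Trp53 label the counts were 5 above (13.2%, beside 14.2%), namely Dis3, Exosc2, Exosc3, Exosc7 and Exosc8, and 1 below. In a bulk library less RNA of a gene per cell and fewer cells of a type that makes it cannot be told apart.

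Base composition moved with these differences. The members' longest annotated transcripts had a median GC content of 48.0% and a median length of 4271 bases, beside 49.7% and 3114 bases over all genes. Over all genes the difference between the Tut1 KO and control went from a median of -0.32 in the lowest of 5 equal bins of GC content (up to 43.8%) to 0.08 in the highest, with Spearman's rho of 0.40. Over the 38 members rho was 0.50 with GC content and -0.38 with length. These correlations are across genes of the same 2 libraries, which are not independent replicates, and are given as descriptions.

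With the fit on GC content and length removed, the members' median difference between the Tut1 KO and control went from -0.16 to 0.03, and the Tut1 KO was lowest for 8 members (21.1%, beside 29.8% of all genes). The counts by pattern moved too. The Tut1 KO and the Trp53 KO were both below the control and double KO for 8 members (21.1%, beside 15.8% of all genes) in place of 19. Both libraries labelled for Tut1 loss were above both others for 10 (26.3%, beside 21% of all genes) in place of 3, and below for 7, of which 5 reached 10 TPM (14.3% of 35, beside 17% of all genes). For the Trp53 label the counts came to 1 above, Exosc2 (2.63%, beside 15.8% of all genes), in place of 5, and 6 below, of which 5 reached 10 TPM (14.3% of 35, beside 15.7%), in place of 1. Cnot6 went from -0.46 to -0.03, Xrn1 from -0.46 to -0.01, Smg1 from -0.36 to 0.08 and Cnot7, whose longest transcript has the lowest GC content of the members at 38.2%, from -0.66 to -0.23. Dis3l2, at 39.9% GC, went from 0.23 to 0.63, past 1.5-fold, with 0.10 between the double KO and Trp53 KO. Cnot3 was -0.39 and -0.48 in the Tut1 comparisons after the correction, close to its uncorrected values, and Exosc6 remained at 1.87 and -2.18. The longest transcript need not be the one these cells use, and the longest entry of Cnot3 has a single exon. The part of GC content in the differences was not tested beyond this correction.

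**Figure D5:**
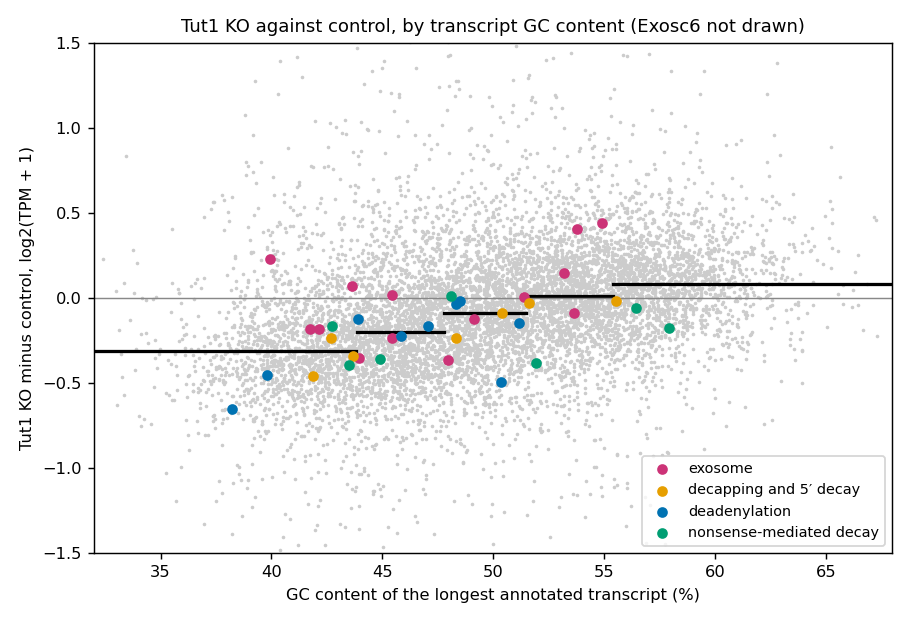
Difference in log2(TPM + 1) between the Tut1 KO and control against GC content of the longest annotated transcript; grey points are genes that reached 10 TPM (237 lie beyond the axes), black bars the medians of 5 equal bins of genes by GC content and coloured points the members other than Exosc6. The bars climb from -0.32 to 0.08, and of the members in the lowest bin Dis3 and Dis3l2 alone lie above 0.

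Genes that work with the members were read in the same way for the Tut1 comparisons. Of 18 exosome adaptors tested, such as the TRAMP, NEXT and PAXT subunits, 0 were called in either Tut1 comparison (12.1% and 7.89% of all genes were). In the wider 5′ decay and P-body list, 1 of 16 was higher and 2 were lower in the Tut1 KO than in the control (18.8% of the 16, beside 12.1% of all genes). Between the double KO and Trp53 KO 0 were called, beside 7.89% of all genes. Lsm7, a subunit of the Lsm ring that binds deadenylated ends, had 164, 282, 175 and 239 TPM (0.78 with Trp53 and 0.45 without it). The P-body helicase Ddx6 had 35.1, 15.9, 24.1 and 28.1 TPM, a difference of -1.09 with Trp53 and 0.21 without it. For Ddx6 both libraries with Xist were below both others, as for 28.5% of the 9314 genes. Lsm14a, a P-body protein gene named here after its values were seen, differed by -0.60 with Trp53, which came to -0.46 after the correction, short of 1.5-fold.

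Of 20 deadenylase partners tested in the Tut1 KO against the control, 1 was lower (8.1% of all genes were), Tnrc6a, which links microRNA complexes to CCR4-NOT. It was at 17.0, 8.14, 9.54 and 14.6 TPM, a difference of -0.98 with Trp53 and 0.57 without it. Its low libraries too were those with Xist, an order of 28.5% of the 9314 genes. Of 14 NMD partners, such as the exon junction proteins, 0 were called in either Tut1 comparison (12.1% and 7.89% of all genes were).

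RNAs that NMD is known to degrade were read from a list of 13 genes, 11 of them tested. Between the Tut1 KO and control 0 of the 11 were called, beside 12.1% of all genes. Over all 13 the median was 0.12, with 11 above 0 (39.3% of all genes were), and it came to 0.26 after the correction. In the other Tut1 comparison 1 was higher and 1 lower (18.2% of the 11, beside 7.89% of all genes). There the median over the 13 was -0.13, with 10 below 0 (41.3% of all genes were), or -0.12 after the correction. Atf4, a stress transcription factor with upstream reading frames, was at 131, 131, 133 and 230.3 TPM, so the double KO alone was high (0.78 over the Trp53 KO). Its target Chac1 was at 9.82, 10.6, 16.5 and 10.5 TPM (-0.61 in that comparison, and -0.56, short of 1.5-fold, after the correction). Cdkn1a, which is also a p53 target, was at 477, 605, 196 and 179 TPM and was lower in both libraries labelled for Trp53 loss (-1.28 with Tut1 intact and -1.75 without it). Several of these RNAs are also transcribed in response to stress or p53, so their levels do not read NMD alone.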

How the data were processed

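The authors deposited 1 table of TPM for 4 libraries, 1 a group. Per the labels and the submitters' processing notes, total RNA went into a stranded short-read mRNA kit, and Trimmomatic, HISAT2, StringTie and mm10 were used; their roles and the annotation behind this table are not given in the sources used here. The text of the series describes long reads instead, and the platform behind this table could not be settled. TPM keeps no depth, so counting error is unknown. Per-sample columns without a sample numbered 0.

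Differences were taken as log2(TPM + 1), with a minimum of 10 TPM in at least 1 library compared and a call at 1.5-fold, and 2-fold as a second level. No test between 2 groups was possible with 1 library a group, and none of a label over all 4 libraries was run. Members and wider lists were chosen by function, with earlier results of these data known. Named genes were all members, wider-list genes past 1.5-fold in both Tut1 or both Trp53 comparisons, and the largest rise and fall of each list in each Tut1 comparison; of the latter, those whose call is counted are given in the report and the rest in the closing section. A result for 1 gene of these lists is not reported here. Coordinates, GC content and length came from GENCODE mouse release 21 (GRCm38), which held 99.4% of the IDs and all 38 members. RefSeq coordinates came from GRCm38.p6. The correction removed a fit on GC content and length from each library. The code was tested on simulated libraries. Exons of 3 members overlap another gene on the same strand (Exosc6, Edc4 by 8.33%, Cnot3 by 1.21%) and those of 16 overlap one on the opposite strand, by up to 22.1% (Edc3). Whether counting used strand is not given in the sources used here. Scripts ran under Python 3.11.15 with pandas 2.3.3, numpy 2.4.6 and scipy 1.17.1, and plots were drawn with matplotlib 3.10.9.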

Additional observations from a re-analysis of the deposited data

Results flagged for a closer look

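Exosc6 differed in opposite directions within each label. For the Tut1 label it differed by 1.97 with Trp53 and by -2.30 without it on the log2 scale, a gap of 4.26, and for the Trp53 label the gap between 1.73 and -2.54 was also 4.26. Both gaps are the same sum over the same 4 libraries. With 1 library a group the difference was not tested. The values are those of 4.05, 18.8, 15.7 and 2.40 TPM (control, then Tut1 KO, then Trp53 KO, then double KO), read within an exon shared with Aars.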

How the results depend on the processing

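Of 2090 values of single members under alternatives, 2033 kept their call or its absence with no sign change of 0.1 or more, 18 were no longer called, 1 newly was (Dis3l2), 36 uncalled values changed sign by 0.1 or more and 2 called values, both of Exosc6, changed sign. Of the 18, 11 came to less than 1.5-fold and 7 did not, namely 4 of Exosc6 under the stricter minimum and 3 short of the 2-fold call. Between the Tut1 KO and control the count of 2 called members became 1 with a minimum of 10 TPM in all libraries compared, with the median of all genes set to 0, after quantile normalization, at 2-fold and with Exosc6 summed with Aars. Between the double KO and Trp53 KO it became 1 under the same settings and with a pseudocount of 5, without 141 mitochondrially encoded and ribosomal protein genes, and after the GC and length correction. Between the Trp53 KO and control it became 1 with the minimum in all libraries, after the correction, at 2-fold and with the sum. Between the double KO and Tut1 KO the count of 1 became 0 with the minimum in all libraries and with the sum. The count of 0 for the double KO and control held throughout. Summing Exosc6 with Aars, an alternative added after the data were seen, turned its differences to 0.016 (double KO against Trp53 KO) and 0.16 (double KO against Tut1 KO), a sum that is mostly Aars. Cnot7 in the Tut1 KO against control was -0.56 with medians set to 0, -0.57 after quantile normalization and -0.23 after the correction. The members' median in that comparison ranged from -0.16 to 0.03. The causes of these shifts were not tested. No paired analysis was possible because each group had 1 library, and for the same reason no replicate could be left out.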

Other observations

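The other genes of the wider lists that the naming rule picks gave the following values. Among exosome adaptors, Nrde2 was highest relative to the reference in both Tut1 comparisons (0.41 with Trp53 and 0.47 without it, at 8.76, 11.9, 7.35 and 10.6 TPM, in the order control, then Tut1 KO, then Trp53 KO, then double KO). The noncanonical poly(A) polymerase gene Tent4b was lowest with Trp53 (-0.82, from 4.33 to 2.03 TPM, under the minimum of 10 TPM for a call), and Zfc3h1, the PAXT zinc-finger subunit, was lowest without it (-0.25). In the 5′ decay list Lsm5 differed by -0.29 between the double KO and Trp53 KO. The antiproliferative CCR4-NOT partner Btg1 differed by -0.25 between the double KO and Trp53 KO. Among NMD partners, Smg9 (0.38) and Magohb (-0.43) were the extremes with Trp53, and the exon junction helicase gene Eif4a3 (0.32) and Nbas (-0.22) those without it. Among NMD substrates the growth arrest genes Gadd45b (0.55, from 5.36 to 8.29 TPM and so under the minimum for a call) and Gadd45a (-0.54, from 11.8 to 7.82 TPM) were the extremes with Trp53.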
